A study of Mus musculus with 12 samples.

Results

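Cholesterol synthesis and transport genes were followed in single-cell RNA sequencing of mouse gonads. The set was a list of 31 gene symbols, and each of them matched 1 of the 32285 features counted. The list held 6 enzymes of the mevalonate pathway, 11 enzymes that build and finish the sterol ring, 2 acetyl-CoA thiolases, 5 regulators of sterol sensing and 7 genes of sterol transport and storage. Gonads were taken at E12 from XX and XY embryos that were WT, -KTS KO or +KTS KO, and each of these 6 groups was profiled in 2 libraries, 12 in all. The transcription factor gene Wt1 is spliced into forms with (+KTS) or without (-KTS) the amino acids lysine, threonine and serine between its last zinc fingers. The -KTS KO embryos carried alleles that cannot make the form without them in either copy, and the +KTS KO embryos carried alleles that cannot make the form with them. The mice were on a mixed background, the mutants were homozygous, and whole gonads were dissociated without a sort. Some -KTS KO libraries were pooled from several embryos, and the stage by tail somites differed between libraries. Counts of 3' ends do not separate the forms of Wt1, so its level checks nothing about the knockouts.

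Cells make cholesterol from acetyl-CoA through mevalonate and squalene, and take it up from lipoproteins. When the membrane of the endoplasmic reticulum is poor in sterol, Scap carries the SREBP transcription factors (products of Srebf1 and Srebf2) to the Golgi for cleavage, and the cleaved factors enter the nucleus and raise the synthesis genes. When sterol is plentiful, the Insig proteins hold Scap back, Soat1 stores the excess as esters and the exporters Abca1 and Abcg1, targets of the oxysterol-sensing LXR receptors, release it. In the gonad, cholesterol is also the starting material of steroid hormones, and steroid-making cells draw on lipoprotein uptake through Scarb1 and on ester stores.

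The sequence windows from 250 bases before to 50 bases after the start site are given for 6 members that the results turn on, from RefSeq on GRCm38.p6. The windows are those of Hmgcs1, which held the sterol response motif, of Mvk, Mvd and Msmo1, synthesis genes that were higher in XX +KTS KO gonads, and of Scap and Soat1, which were called in both kinds of mutant. Capitals mark the sterol response motif TCACNCCAC and the NF-Y motif CCAAT, each on either strand (ATTGG is CCAAT on the other strand). Each sequence is written 5′ to 3′ on the strand of the gene.
Hmgcs1, chr13:119690101-119690400, plus strand: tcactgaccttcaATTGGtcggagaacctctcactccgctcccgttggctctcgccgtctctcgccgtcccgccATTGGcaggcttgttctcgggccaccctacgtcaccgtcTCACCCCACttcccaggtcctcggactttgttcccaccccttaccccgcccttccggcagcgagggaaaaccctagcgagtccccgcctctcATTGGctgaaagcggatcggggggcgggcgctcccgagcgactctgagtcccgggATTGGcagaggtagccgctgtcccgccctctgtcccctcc
Mvk, chr5:114444019-114444318, plus strand: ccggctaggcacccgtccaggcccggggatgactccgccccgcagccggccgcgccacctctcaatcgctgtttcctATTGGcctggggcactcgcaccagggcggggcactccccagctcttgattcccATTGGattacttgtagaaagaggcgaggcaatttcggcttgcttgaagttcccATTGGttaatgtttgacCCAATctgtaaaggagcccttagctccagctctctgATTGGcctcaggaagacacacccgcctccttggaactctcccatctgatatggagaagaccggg
Mvd, chr8:122443373-122443672, minus strand: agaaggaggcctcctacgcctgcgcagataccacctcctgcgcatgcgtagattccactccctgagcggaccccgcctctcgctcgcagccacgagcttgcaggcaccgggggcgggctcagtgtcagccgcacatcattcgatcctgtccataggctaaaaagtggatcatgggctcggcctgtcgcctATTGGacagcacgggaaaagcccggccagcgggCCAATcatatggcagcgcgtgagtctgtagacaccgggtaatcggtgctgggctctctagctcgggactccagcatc
Msmo1, chr8:64733529-64733828, minus strand: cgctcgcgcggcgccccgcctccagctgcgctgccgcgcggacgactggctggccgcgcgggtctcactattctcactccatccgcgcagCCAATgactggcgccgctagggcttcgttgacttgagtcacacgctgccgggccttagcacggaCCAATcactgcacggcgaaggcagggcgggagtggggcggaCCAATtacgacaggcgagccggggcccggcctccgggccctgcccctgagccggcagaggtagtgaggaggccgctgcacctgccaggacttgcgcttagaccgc
Scap, chr9:110333038-110333337, plus strand: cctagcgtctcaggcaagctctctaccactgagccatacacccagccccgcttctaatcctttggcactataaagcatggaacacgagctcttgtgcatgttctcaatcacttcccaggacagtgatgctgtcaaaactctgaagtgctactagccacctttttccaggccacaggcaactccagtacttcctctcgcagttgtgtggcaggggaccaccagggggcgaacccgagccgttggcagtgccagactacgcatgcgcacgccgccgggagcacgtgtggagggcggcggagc
Soat1, chr1:156474279-156474578, minus strand: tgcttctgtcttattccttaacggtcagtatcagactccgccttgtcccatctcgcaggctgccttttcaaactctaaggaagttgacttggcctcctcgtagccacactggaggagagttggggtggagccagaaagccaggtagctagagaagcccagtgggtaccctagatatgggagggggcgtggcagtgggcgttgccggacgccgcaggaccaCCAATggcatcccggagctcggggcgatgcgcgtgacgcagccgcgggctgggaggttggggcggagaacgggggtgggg

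RefSeq windows were found for 23 of the 31 members, with 31 windows in all where a gene has more than 1 start. No window was found for Fdps, Fdft1, Sqle, Acat3, Stard4, Abcg1, Npc1 or Scarb1, so the counts below leave these genes out. The motif TCACNCCAC occurred in 1 of the 31 member windows and in 1.24% of all 32851 windows of this length. CCAAT occurred in 21 of the 31 member windows (67.7%), against 37.4% of all windows. The GC box GGGCGG, the motif of the Sp factors, occurred in 26 of the 31 member windows (83.9%), against 35.7% of all windows. By gene, 20 of the 23 members held CCAAT and 22 held GGGCGG, and a match of one motif can share its end bases with a match of the other. The Mvk window held 5 CCAAT matches, that of Hmgcs1 held 4, that of Msmo1 3, that of Mvd 2, that of Soat1 1 and that of Scap 0. A match of letters is a description of the window and not a bound site.

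For each library the UMIs of its gonadal somatic cells were added up, giving 57073030 to 99629558 UMIs, and compared between libraries with edgeR's quasi-likelihood test and Benjamini-Hochberg adjustment over all genes tested. A gene was called at an adjusted p under 0.05, and levels are CPM, the UMIs of a gene per 1000000 UMIs of those cells, normalised between libraries. Standard errors of log2 folds are approximate. Groups are said not to overlap where every library of 1 group lay above every library of the other. The share of all genes without overlap was not counted, so such statements are descriptions. Xist was at 525 to 719 CPM in the XX and at or below 0.153 CPM in the XY libraries, and Ddx3y was at 44.1 to 62.4 CPM in XY and absent in XX, as the labelled sexes have it. In sums over a tissue, fewer cells of a type and less RNA per cell cannot be told apart. Supporting cells are the lineage that gives Sertoli and pre-granulosa cells. Clusters named for them held 53.9% and 53.5% of somatic cells in XX WT and 28.2% and 30.7% in XY WT. In XX +KTS KO they held 49.5% and 38.1%, and in XY +KTS KO 50.6% and 41.6%. Unnamed clusters that scored best for a supporting type held 226 and 249 further cells in XX WT and 711 and 1177 in XY WT. In +KTS KO these unnamed clusters held 132 and 176 cells for XX and 27 and 153 for XY. In the -KTS KO libraries the clusters named for supporting cells held only 2 to 9 cells each. The unnamed cluster 5, of 4164 cells, scored best for pre-granulosa markers, and 58.3% of its cells came from XY -KTS KO. The paper reports pre-supporting cells in -KTS KO gonads of both sexes. The count of 2 to 9 thus covers named clusters and not the lineage. Replicate 1 of XY +KTS KO stood apart in its immediate early genes, of which 8 of 8 were detected. Detection of markers is counted over the 12 libraries together, here and below. In its somatic cells these genes summed to 3107 CPM, against 695 CPM in replicate 2 and 447 to 912 CPM in the other 10 libraries. In XX -KTS KO replicate 2, 44.3% of somatic cells lay in clusters that could not be named, and no other library exceeded 28.1%.

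All 31 members passed the filter on low counts, 15 of them were called in at least 1 of the 4 comparisons of a mutant with WT of the same sex, and 16 in none. Of all 17716 genes tested, 36.0% were called in at least 1 of these 4. In XX +KTS KO, 6 members were called (19.4%, against 5.06% of the 17716 genes tested), all of them higher, where 2.36% of all genes were called higher and 2.70% lower. The median log2 fold of the 31 members was 0.28, against 0.00 for all genes, with 25 members above and 6 below 0. In the same sums Leydig or adrenal steroidogenic markers (7 of 7 detected) went from 6.07 to 6.32 CPM in XX WT to 11.9 to 12.7 CPM in XX +KTS KO, immediate early genes (8 of 8) from 447 to 495 CPM to 665 to 912 CPM, and interstitial progenitor markers (7 of 7) from 376 to 395 CPM to 467 to 594 CPM. Erythrocyte markers (7 of 7) were lower, at 132 to 323 CPM against 415 to 875 CPM. The part of these markers in the higher members was not tested. In XY +KTS KO, 5 members were called (16.1%, against 12.4% of all genes), 4 higher and 1 lower, where 6.10% and 6.28% of all genes were, with a median of -0.02 against 0.05. In XX -KTS KO, 4 members were called (12.9%, against 16.2%), all of them lower, where 9.47% of all genes were called lower and 6.76% higher, with a median of -0.10 against 0.01. In XY -KTS KO, 10 members were called (32.3%, against 23.6%), 2 higher and 8 lower, where 11.2% and 12.5% of all genes were, with a median of -0.32 against 0.02. The shares called in XX -KTS KO and XY +KTS KO thus lay near those of all genes. Both mutants of a sex were compared with the same WT libraries.

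These counts rested on few libraries, since leaving 1 out leaves a group with a single sample. In XX +KTS KO, 1 member stayed called without replicate 1, 0 without replicate 2, 1 without XX WT replicate 1 and 0 without XX WT replicate 2. In XY +KTS KO, the count was 1 without replicate 1, 7 without replicate 2, 1 without XY WT replicate 1 and 2 without XY WT replicate 2. In XX -KTS KO, it was 1 and 2 without replicates 1 and 2, and 1 without either XX WT replicate. In XY -KTS KO, it was 5 and 6 without replicates 1 and 2, 9 without XY WT replicate 1 and 6 without XY WT replicate 2. No called member's fold changed sign in any of these fits. Over all genes too, fewer were called in each of these fits, except in XY +KTS KO without replicate 2, where more were. The changes in these counts were thus not particular to the members. The embryos behind the libraries of 1 group are not told apart by the labels in every case, so p-values measure the spread between these libraries.

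**Figure D1:**
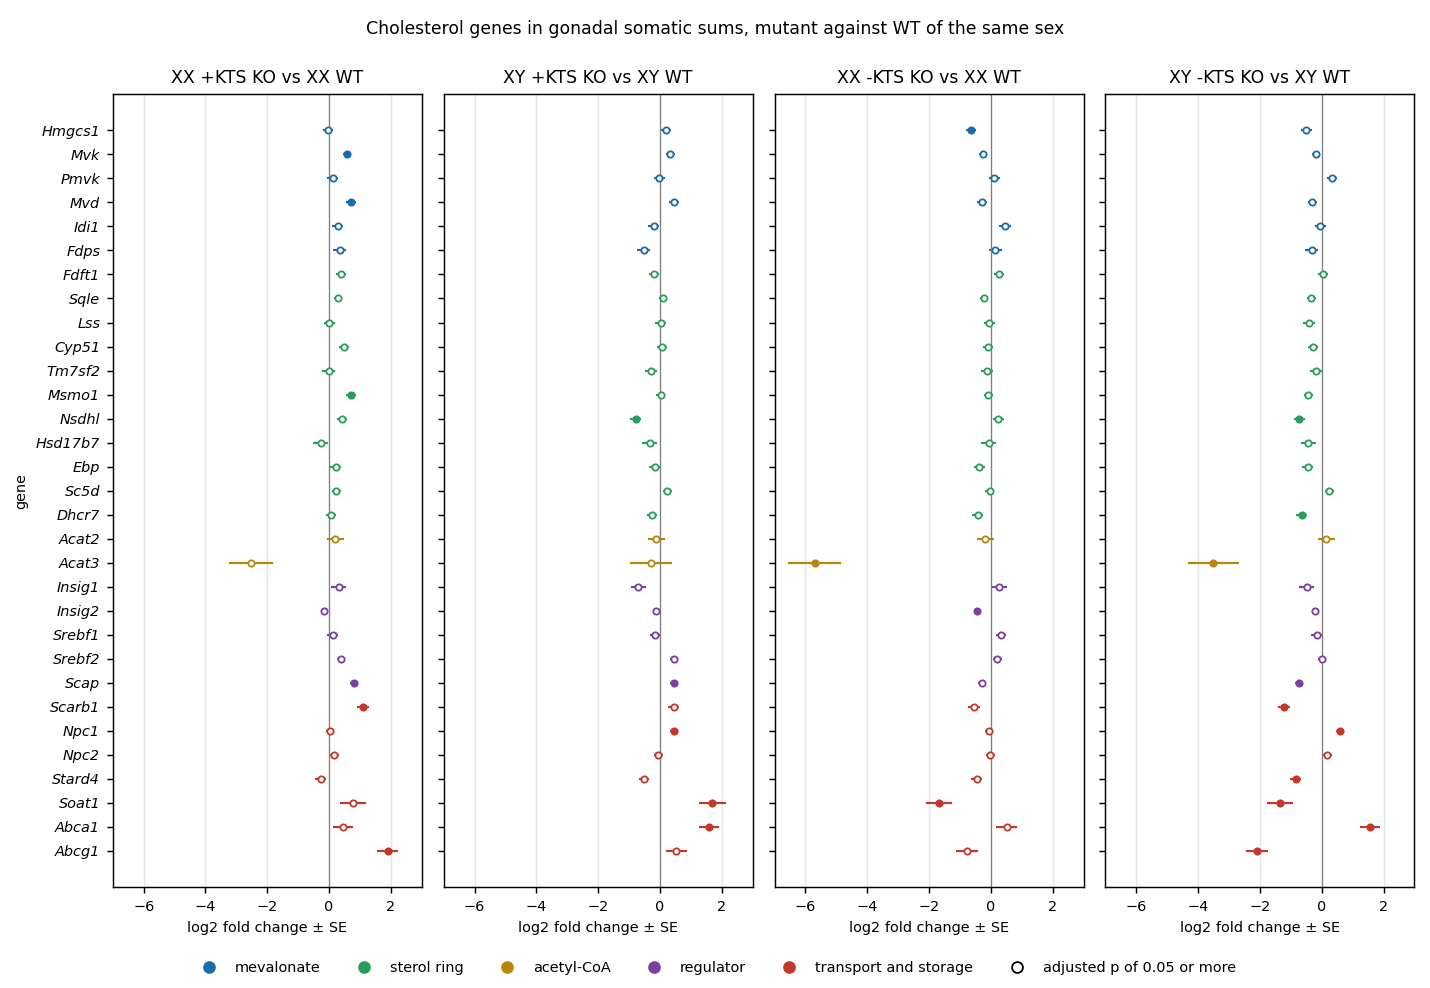
Log2 fold changes (x axis, bars ± SE) of the 31 members (y axis, coloured by role) in gonadal somatic sums, in 4 panels that each set 2 mutant libraries against the 2 WT libraries of the same sex. Filled points passed an adjusted p of 0.05: 6 in XX +KTS KO, 5 in XY +KTS KO, and, for -KTS KO, 4 for XX with 10 for XY.

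Of the 6 mevalonate pathway genes, Mvk and Mvd were called higher in XX +KTS KO and Hmgcs1 lower in XX -KTS KO, and none was called in the XY mutants. Hmgcs1 makes HMG-CoA, the substrate for mevalonate. It was at 94.1 and 86.8 CPM in XX WT, 87.3 and 90.3 CPM in XX +KTS KO and 52.6 and 63.4 CPM in XX -KTS KO. In the XY libraries it was at 64.4 and 86.7 CPM in WT, 93.4 and 77.9 CPM in +KTS KO and 54.1 and 53.2 CPM in -KTS KO. Both -KTS KO groups thus lay below their WT libraries without overlap. In XX -KTS KO the log2 fold was -0.64 ± 0.17 (SE, edgeR adjusted p = 0.0263), and in XY -KTS KO it was -0.49 ± 0.17 and missed the threshold (edgeR adjusted p = 0.0557). The call in XX -KTS KO was lost in each of the 4 fits that left out 1 library.

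Mvk, mevalonate kinase, was at 34.6 and 33.1 CPM in XX WT, 51.1 and 49.8 CPM in XX +KTS KO and 27.7 and 29.0 CPM in XX -KTS KO. Levels in XY gonads were 35.6 and 31.7 CPM in XY WT, 38.2 and 46.9 CPM in XY +KTS KO and 31.7 and 27.2 CPM in XY -KTS KO. The XX +KTS KO libraries lay above all 10 others, with a log2 fold over XX WT of 0.58 ± 0.14 (edgeR adjusted p = 0.0392). Mvd, the decarboxylase that closes the mevalonate pathway, showed the same order of XX groups, at 23.3 and 18.6 CPM in WT, 36.6 and 31.2 CPM in +KTS KO and 16.3 and 17.8 CPM in -KTS KO. In the XY groups it was at 21.2 and 21.8, 28.1 and 30.8, and 19.5 and 15.5 CPM. Its log2 fold in XX +KTS KO was 0.70 ± 0.16 (edgeR adjusted p = 0.0333), and that in XY +KTS KO was 0.45 ± 0.16 and missed the threshold (edgeR adjusted p = 0.086). Both calls were lost when any 1 of the 4 libraries was left out. Pmvk, Idi1 and Fdps, which phosphorylate, isomerise and condense the intermediates, were called in no mutant, with log2 folds between -0.52 and 0.46.

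Of the 11 sterol ring genes, Msmo1 was called higher in XX +KTS KO, Nsdhl lower in both XY mutants and Dhcr7 lower in XY -KTS KO. Msmo1, which oxidises the methyl groups of lanosterol-derived sterols, was at 40.3 and 32.7 CPM in XX WT, 62.7 and 56.7 CPM in XX +KTS KO and 33.2 and 35.9 CPM in XX -KTS KO. The log2 fold in XX +KTS KO was 0.71 ± 0.15 (edgeR adjusted p = 0.0251), and the call was lost in each of the 4 leave-one-out fits. In the XY groups Msmo1 was at 47.9 and 52.3 CPM in WT, 46.3 and 55.6 CPM in +KTS KO, which overlapped WT, and 39.7 and 34.6 CPM in -KTS KO.

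Nsdhl, an X-linked dehydrogenase of the same demethylation steps, was at 29.6 and 23.3 CPM in XY WT and at 12.5 to 19.0 CPM in the other 10 libraries. Within XY it was at 13.9 and 16.8 CPM in +KTS KO and at 16.4 and 15.6 CPM in -KTS KO. The log2 folds were -0.79 ± 0.17 in XY +KTS KO (edgeR adjusted p = 0.0181) and -0.73 ± 0.17 in XY -KTS KO (edgeR adjusted p = 0.0139), kept in 2 and 1 of 4 leave-one-out fits. Sertoli markers (7 of 7 detected) summed to 1403 to 1615 CPM in XY WT, 82.8 to 246 CPM in XY +KTS KO and 39.3 to 40.9 CPM in XY -KTS KO, and their part in the lower Nsdhl levels was not tested. In XX it was at 14.9 and 12.5 CPM in WT, 19.0 and 17.7 CPM in +KTS KO and 18.2 and 14.2 CPM in -KTS KO, and neither XX mutant was called. Dhcr7, the reductase of the last step to cholesterol, was at 13.2 and 14.7 CPM in XY WT and at 7.69 and 10.2 CPM in XY -KTS KO, a log2 fold of -0.64 ± 0.18 (edgeR adjusted p = 0.0249) kept in 1 of 4 leave-one-out fits. Dhcr7 in XX -KTS KO was at 7.59 and 9.34 CPM against 11.2 and 11.5 CPM in WT, and was not called. The other 8 genes of the ring (Fdft1, Sqle, Lss, Cyp51, Tm7sf2, Hsd17b7, Ebp and Sc5d) were called in no mutant.

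Summed over the 17 mevalonate and sterol ring genes, the level was 591 and 516 CPM in XX WT, 675 and 696 CPM in XX +KTS KO and 517 and 547 CPM in XX -KTS KO. In the XY libraries the sum was 640 and 636 CPM in WT, 552 and 642 CPM in +KTS KO and 585 and 498 CPM in -KTS KO. The XX +KTS KO libraries had the highest sums of the 12 and the XY +KTS KO libraries overlapped XY WT. In XX +KTS KO, 14 of the 17 genes had a fold above 0, with a median log2 fold of 0.28 against 0.00 for all genes. In XY -KTS KO, 14 of the 17 had a fold below 0, with a median of -0.32 against 0.02 for all genes.

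**Figure D2:**
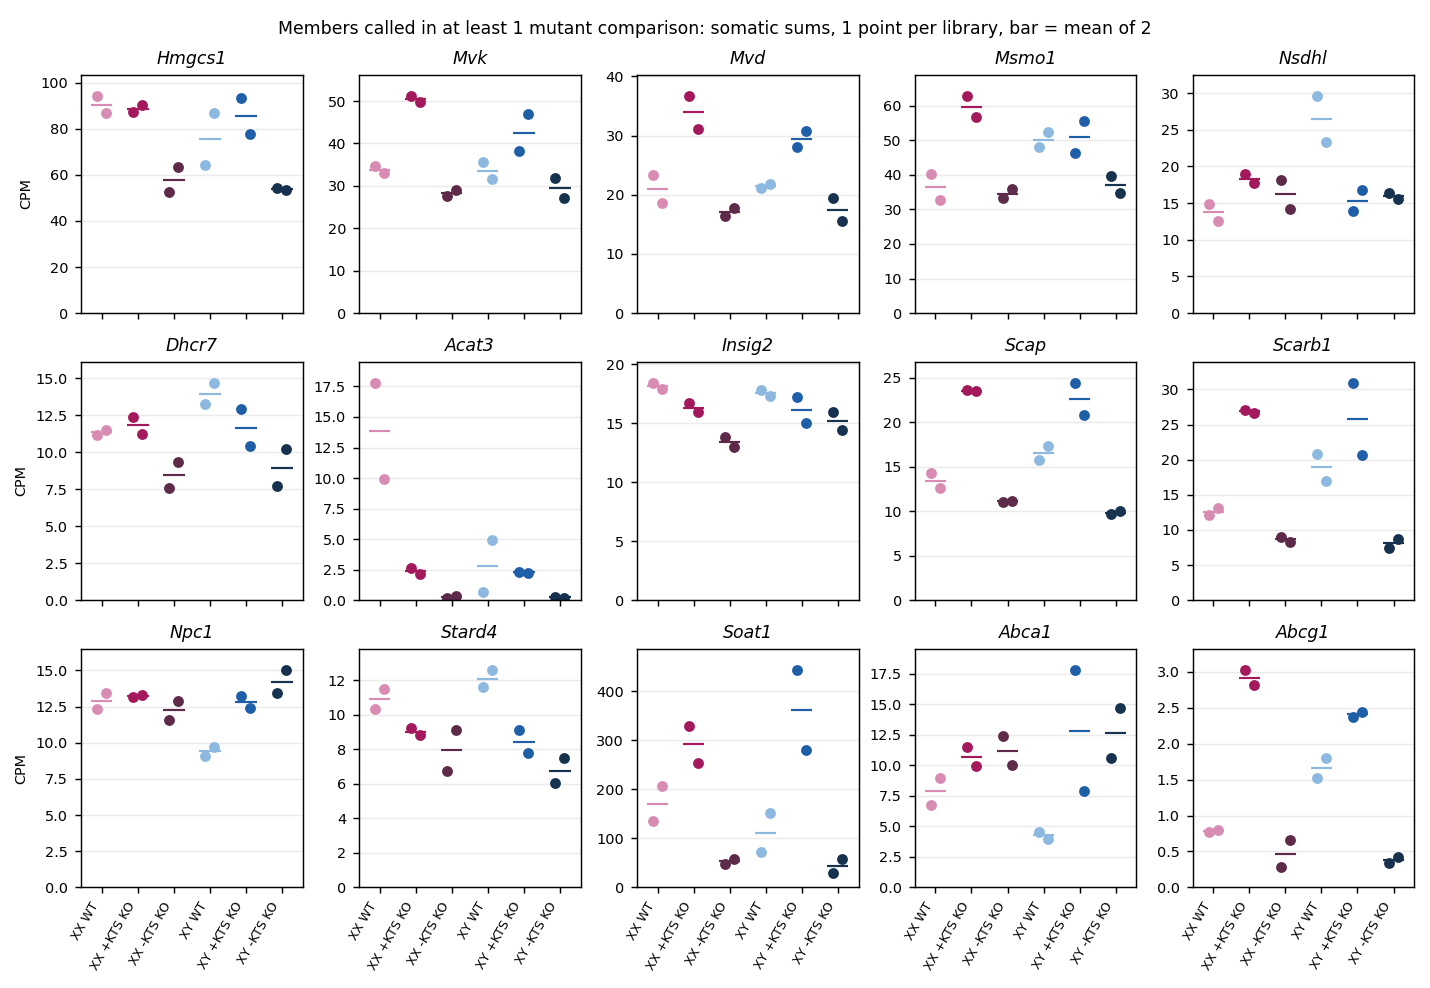
CPM in gonadal somatic sums (y axes from 0) of the 15 members called in at least 1 mutant comparison, in each of 6 groups (x axis). Each point is 1 library and each bar the mean of 2; Nsdhl stands highest in XY WT, and Scap and Scarb1 stand highest in the +KTS KO groups and lowest in the -KTS KO groups.

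The thiolases Acat2 and Acat3, which join acetyl-CoA units in the cytosol, are neighbouring paralogs on chromosome 17, and reads may have been split between them. Acat3 also overlaps Tcp1 on the other strand. Acat3 was at 17.7 and 9.95 CPM in XX WT (1201 and 911 UMIs), 2.63 and 2.12 CPM in XX +KTS KO and 0.172 and 0.373 CPM in XX -KTS KO (14 and 21 UMIs). The log2 fold in XX -KTS KO was -5.71 ± 0.87 (edgeR adjusted p = 0.00282), a call kept in all 4 leave-one-out fits, while that in XX +KTS KO was -2.54 ± 0.71 and missed the threshold (edgeR adjusted p = 0.0811). The XY WT libraries differed widely from each other, at 0.679 and 4.93 CPM (47 and 322 UMIs). XY +KTS KO was at 2.31 and 2.25 CPM and XY -KTS KO at 0.270 and 0.220 CPM, with a log2 fold of -3.51 ± 0.82 in the latter (edgeR adjusted p = 0.014) that was called in 1 of the 4 leave-one-out fits. Acat2 ranged from 36.0 to 75.8 CPM over the 12 libraries and was called in no mutant.

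Of the 5 regulators, Scap was called in 3 of the 4 mutant comparisons. Scap, the sterol-sensing escort of the SREBPs, was at 14.2 and 12.6 CPM in XX WT, 23.7 and 23.5 CPM in XX +KTS KO and 11.03 and 11.2 CPM in XX -KTS KO. Levels in XY gonads were 15.8 and 17.3 CPM in XY WT, 24.4 and 20.8 CPM in XY +KTS KO and 9.67 and 10.0 CPM in XY -KTS KO. Within each sex the 3 genotypes did not overlap, with +KTS KO highest and -KTS KO lowest. The log2 folds were 0.81 ± 0.12 in XX +KTS KO (edgeR adjusted p = 0.00731), 0.45 ± 0.12 in XY +KTS KO (edgeR adjusted p = 0.0417) and -0.75 ± 0.13 in XY -KTS KO (edgeR adjusted p = 0.00239), while XX -KTS KO was not called (-0.27 ± 0.13, edgeR adjusted p = 0.171). The call in XY -KTS KO held in all 4 leave-one-out fits, that in XX +KTS KO in 2 and that in XY +KTS KO in 1.

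Insig2, a retention factor for Scap, was at 18.4 and 17.9 CPM in XX WT and 13.8 and 13.0 CPM in XX -KTS KO, a log2 fold of -0.43 ± 0.12 (edgeR adjusted p = 0.0337) that was lost in each leave-one-out fit. It was at 17.8 and 17.3 CPM in XY WT and 15.9 and 14.4 CPM in XY -KTS KO, which was not called. Insig1, the other retention factor, was called in no mutant, and its XY WT libraries were at 14.9 and 29.1 CPM, so that 1 WT library lay above all 11 others. Srebf2, which encodes the SREBP of the cholesterol genes, was not called, with its largest fold in XY +KTS KO at 0.46 ± 0.14 (edgeR adjusted p = 0.0579). Srebf1 was not called either.

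Summed levels of cell type markers also differed between the genotypes. The pre-granulosa markers summed to 1174 to 1191 CPM in the somatic sums of XX WT, 391 to 516 CPM in XX -KTS KO and 293 to 392.3 CPM in XX +KTS KO, and the pre-supporting markers to 1638 to 1791 CPM in XX WT and 588 to 765 CPM in XX -KTS KO. Interstitial progenitor markers summed to 615 to 906 CPM in XX -KTS KO against 376 to 395 CPM in WT, coelomic epithelial markers (6 of 6) to 193 to 236 CPM against 127 to 140 CPM, and immediate early genes to 577 to 598 CPM against 447 to 495 CPM. Erythrocyte markers summed to 163 to 168 CPM against 415 to 875 CPM, Sertoli markers to 20.2 to 25.7 CPM against 55.5 to 61.1 CPM, proliferation markers to 561 to 596 CPM against 644 to 658 CPM, and perivascular markers, of which 5 of 6 were detected, to 27.9 to 30.4 CPM against 13.6 to 20.1 CPM. The part of these markers in the 4 calls of XX -KTS KO, Hmgcs1, Insig2, Acat3 and Soat1, was not tested. For XY -KTS KO, Sertoli markers summed to 39.3 to 40.9 CPM against 1403 to 1615 CPM in XY WT, proliferation markers to 536 to 567 CPM against 920 to 1025 CPM, and pre-granulosa markers to 454 to 481 CPM against 169 to 344 CPM. Coelomic epithelial markers there were at 207 to 234 CPM against 130 to 158 CPM, mesonephric markers (7 of 7) at 94.2 to 103 CPM against 39.1 to 61.4 CPM and erythrocyte markers at 108 to 233 CPM against 315 to 574 CPM. In XY +KTS KO the Sertoli markers summed to 82.8 to 246 CPM, the proliferation markers to 624 to 676 CPM, the pre-supporting markers to 1385 to 1386 CPM against 737 to 1081 CPM and the germ markers to 3.90 to 10.9 CPM against 20.6 to 32.9 CPM in WT. The part of these markers, and of marker lists not printed here, in the 10 calls of XY -KTS KO and the 5 of XY +KTS KO was not tested.

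Of the 7 genes of transport and storage, 6 were called in at least 1 mutant, where 36.0% of all genes were, and Npc2, which hands cholesterol to Npc1 in the lysosome, in none. Soat1, which esterifies cholesterol for storage, was at 135 and 207 CPM in XX WT, 329 and 254 CPM in XX +KTS KO and 48.1 and 58.9 CPM in XX -KTS KO. In the XY libraries it was at 72.0 and 151 CPM in WT, 442 and 281 CPM in +KTS KO and 29.4 and 57.9 CPM in -KTS KO. Within each sex all +KTS KO libraries lay above and all -KTS KO libraries below WT. The log2 folds were -1.68 ± 0.43 in XX -KTS KO (edgeR adjusted p = 0.0266), -1.35 ± 0.42 in XY -KTS KO (edgeR adjusted p = 0.0447) and 1.70 ± 0.43 in XY +KTS KO (edgeR adjusted p = 0.0318). XX +KTS KO was not called, at 0.77 ± 0.42 (edgeR adjusted p = 0.386). The first of these calls was lost in all 4 leave-one-out fits and the other 2 in 2 of 4 each. The 2 XY WT libraries lay further apart in Soat1 than the 2 XX WT libraries.

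Scarb1, the receptor that takes up cholesterol from high-density lipoprotein, was at 12.1 and 13.1 CPM in XX WT, 27.1 and 26.7 CPM in XX +KTS KO and 9.05 and 8.32 CPM in XX -KTS KO. Levels in XY gonads were 20.8 and 17.0 CPM in XY WT, 30.9 and 20.6 CPM in XY +KTS KO, which overlapped WT, and 7.47 and 8.76 CPM in XY -KTS KO. The log2 fold was 1.09 ± 0.19 in XX +KTS KO (edgeR adjusted p = 0.0118), lost in all 4 leave-one-out fits, and -1.22 ± 0.19 in XY -KTS KO (edgeR adjusted p = 0.00165), kept in all 4. Stard4, which moves cholesterol between membranes, was at 11.6 and 12.6 CPM in XY WT and 6.02 and 7.48 CPM in XY -KTS KO, a log2 fold of -0.84 ± 0.18 (edgeR adjusted p = 0.00771) kept in 3 of 4 leave-one-out fits. It was at 10.3 and 11.5 CPM in XX WT and 6.75 and 9.12 CPM in XX -KTS KO, with no call there. Stard4 was called in neither +KTS KO group, whose levels are not given here.

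The exporters Abca1 and Abcg1, which share a regulator, moved in opposite directions in XY -KTS KO. Abca1 was at 4.54 and 3.996 CPM in XY WT, 10.6 and 14.6 CPM in XY -KTS KO and 17.8 and 7.93 CPM in XY +KTS KO, with log2 folds of 1.56 ± 0.34 (edgeR adjusted p = 0.00843) and 1.59 ± 0.34 (edgeR adjusted p = 0.0154), each kept in 2 of 4 leave-one-out fits. In XX it was at 6.78 and 8.98 CPM in WT, 12.4 and 10.0 CPM in -KTS KO and 11.5 and 9.93 CPM in +KTS KO, and was not called. Every mutant library thus lay above WT of its sex. Abcg1 was at 1.52 and 1.81 CPM in XY WT (105 and 118 UMIs) and 0.342 and 0.427 CPM in XY -KTS KO (24 and 35 UMIs), a log2 fold of -2.10 ± 0.36 (edgeR adjusted p = 0.00242) kept in all 4 leave-one-out fits. It was at 0.768 and 0.797 CPM in XX WT (52 and 73 UMIs) and 3.02 and 2.82 CPM in XX +KTS KO (281 and 241 UMIs), a log2 fold of 1.90 ± 0.34 (edgeR adjusted p = 0.0133) lost in each leave-one-out fit. Abcg1 had 23 and 37 UMIs in XX -KTS KO and 195 and 238 UMIs in XY +KTS KO, without a call in either. Over 11 alternative settings the fold of Abcg1 in XX +KTS KO ranged from 0.11 to 1.96, and the call was kept in 5. Abcg1 was also expressed in endothelial cells, whose 6 of 6 markers summed to 15.3 to 21.2 CPM in XX WT, 10.6 to 16.1 CPM in XX +KTS KO, 18.2 to 27.6 CPM in XY WT and 21.5 to 23.6 CPM in XY -KTS KO. It was expressed in germ cells too, and 6 of 6 germ markers in the somatic sums added up to 20.6 to 32.9 CPM in XY WT, 9.18 to 10.3 CPM in XY -KTS KO, 9.21 to 17.3 CPM in XX WT and 4.54 to 9.27 CPM in XX +KTS KO. The part of either cell type in the Abcg1 differences was not tested.

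Npc1, the protein that exports cholesterol from the lysosome, was at 9.10 and 9.74 CPM in XY WT, 13.2 and 12.4 CPM in XY +KTS KO and 13.4 and 15.0 CPM in XY -KTS KO. The XX libraries of all 3 genotypes lay between 11.6 and 13.4 CPM, so XY WT was the low group. The log2 folds were 0.45 ± 0.12 in XY +KTS KO (edgeR adjusted p = 0.0423) and 0.59 ± 0.12 in XY -KTS KO (edgeR adjusted p = 0.00713), kept in 1 and 2 of 4 leave-one-out fits. Npc1 overlaps Rmc1 on the other strand. Npc2 ranged from 279 to 383 CPM over the 12 libraries.

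Between the sexes in WT, 2 members were called (6.45%, against 13.5% of all genes, with 6.37% higher and 7.08% lower in XX). Nsdhl was lower in XX WT, with a log2 difference of -0.95 ± 0.17 (edgeR adjusted p = 0.007), and Npc1 was higher, by 0.45 ± 0.12 (edgeR adjusted p = 0.0378). The count was 1 without XX WT replicate 1, 0 without XX WT replicate 2, 1 without XY WT replicate 1 and 2 without XY WT replicate 2. Sertoli markers (7 of 7 detected) summed to 1403 to 1615 CPM in XY WT and to 55.5 to 61.1 CPM in XX WT, and proliferation markers (8 of 8) to 920 to 1025 CPM and to 644 to 658 CPM, and their part in these differences was not tested.

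The effect of each mutation was compared between the sexes in the same fit. For -KTS KO, 0 of 31 members differed in effect between XX and XY by edgeR (3.10% of all genes did, 1.81% with a higher and 1.30% with a lower effect in XX). An unadjusted edgeR p under 0.05 was seen for 6 members and for 3205 of all 17716 genes. DESeq2 called 2 members and 7.46% of all genes. For +KTS KO, 1 member differed (3.23%, against 3.92%, with 2.08% higher and 1.85% lower in XX): Nsdhl, whose effect was 1.21 ± 0.25 higher on the log2 scale in XX than in XY (edgeR adjusted p = 0.0282). The count was 0 without any 1 of the 4 XX libraries, 4 without XY +KTS KO replicate 2 and 2 without XY WT replicate 2. For the +KTS KO effect an unadjusted edgeR p under 0.05 was seen for 10 members and for 3473 of all 17716 genes. DESeq2 called 3 members and 8.53% of all genes. Apart from Nsdhl, calls by edgeR seen in 1 sex only were not shown to differ between the sexes.

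Supporting cells were then taken alone. In the 8 WT and +KTS KO libraries they came from clusters named by markers, 1445 to 3810 cells per library, and the fit tested 15873 genes. The clusters differed by genotype: cluster 3, led by Fst and Col12a1, held most such cells of XX WT and cluster 12, the Sertoli cluster, those of XY WT. Cluster 0, named pre-supporting although Cyp11a1, Pnmt and Inha led it, held most of those of XX +KTS KO and most in replicate 2 of XY +KTS KO, and cluster 9, in which the immediate early genes Btg2, Fos and Junb were among the leading genes, held most of those of XY +KTS KO replicate 1. In XX +KTS KO supporting cells, 6 members were called, all higher (19.4%, against 5.74% of all genes, with 2.72% called higher and 3.02% lower). They were the 6 members called in the somatic sums, Mvk, Mvd, Msmo1, Scap, Abcg1 and Scarb1. The median log2 fold of the members was 0.51, against 0.01 for all genes, and 15 of the 17 mevalonate and ring genes lay above 0. Markers moved in these cells as well. Pre-granulosa markers (7 of 7) summed to 1895 to 1971 CPM in XX WT and 498 to 602 CPM in XX +KTS KO, Leydig or adrenal steroidogenic markers to 6.27 to 6.82 CPM and 16.7 to 19.1 CPM, and immediate early genes to 424 to 459 CPM and 607 to 715 CPM. Of the steroidogenic markers, Cyp17a1 was at 1.78 and 2.06 CPM in XX WT and 10.1 and 9.18 CPM in XX +KTS KO. Hsd3b1, at 1.47 and 0.782 CPM and at 1.24 and 0.829 CPM, overlapped between the groups. Erythrocyte markers summed to 429 to 882 CPM and 127 to 320 CPM. Their part in the 6 calls was not tested.

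In these cells Mvk was at 32.2 and 31.7 CPM in XX WT and 62.0 and 66.2 CPM in XX +KTS KO, a log2 fold of 1.00 ± 0.15 (edgeR adjusted p = 0.0114). Mvd was at 26.8 and 20.2 CPM and at 54.5 and 51.1 CPM, a log2 fold of 1.17 ± 0.17 (edgeR adjusted p = 0.0112). Msmo1 was at 35.5 and 28.9 CPM and at 68.9 and 75.2 CPM, a log2 fold of 1.16 ± 0.18 (edgeR adjusted p = 0.0122). In each of these synthesis genes the +KTS KO libraries lay above the WT libraries without overlap. Scap was at 18.4 and 15.9 CPM and at 33.9 and 37.8 CPM, a log2 fold of 1.07 ± 0.15 (edgeR adjusted p = 0.00984). Scarb1 was at 11.6 and 13.3 CPM and at 40.5 and 44.8 CPM, a log2 fold of 1.78 ± 0.25 (edgeR adjusted p = 0.00929). Abcg1 was at 0.934 and 0.885 CPM and at 5.06 and 4.94 CPM, a log2 fold of 2.46 ± 0.27 (edgeR adjusted p = 0.00482), and was the only one of the 6 to stay called in all 4 leave-one-out fits. The number called was 1 without either XX +KTS KO replicate, 2 without XX WT replicate 1 and 1 without XX WT replicate 2. Soat1 was at 160 and 254 CPM in XX WT and 414 and 338 CPM in XX +KTS KO and was not called (0.86 ± 0.39, edgeR adjusted p = 0.268).

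In XY +KTS KO supporting cells, 12 members were called (38.7%, against 26.8% of all genes), 11 higher and 1 lower, where 13.0% of all genes were called higher and 13.8% lower. WT cells of the named supporting clusters were Sertoli cells for the most part in this sex. Left out were 711 and 1177 cells of XY WT in unnamed clusters that scored best for a supporting type. Those clusters held 27 and 153 cells of XY +KTS KO. The 7 Sertoli markers summed to 3847 to 5479 CPM in XY WT and 163 to 486 CPM in XY +KTS KO supporting cells. Proliferation markers went from 527 to 624 CPM to 157 to 218 CPM, pre-supporting markers from 1483 to 1545 CPM to 2451 to 2590 CPM, pre-granulosa markers from 306 to 453 CPM to 509 to 1046 CPM and coelomic epithelial markers from 105 to 127 CPM to 51.9 to 66.5 CPM. The part of these markers, and of marker lists not printed here, in the 12 calls was not tested. The 11 higher members were Hmgcs1, Mvk and Mvd of the mevalonate pathway, Sqle, Msmo1 and Sc5d of the ring, Srebf2 and Scap among the regulators, and Abca1, Abcg1 and Soat1 of transport and storage, with log2 folds from 0.49 to 2.04. In XY WT and XY +KTS KO in turn, Hmgcs1 was at 41.5 and 69.5 CPM and at 104 and 89.0 CPM, Mvk at 28.6 and 28.6 CPM and at 45.1 and 55.5 CPM, and Mvd at 24.8 and 25.9 CPM and at 42.1 and 48.5 CPM. Of the ring genes, Sqle was at 12.1 and 14.2 CPM and at 23.4 and 18.6 CPM, Msmo1 at 32.5 and 38.8 CPM and at 54.4 and 64.8 CPM, and Sc5d at 8.39 and 12.1 CPM and at 14.7 and 20.5 CPM. Scap was at 25.4 and 21.7 CPM and at 32.8 and 33.4 CPM, Abca1 at 10.2 and 7.67 CPM and at 30.2 and 15.1 CPM, and Abcg1 at 1.52 and 2.11 CPM and at 3.99 and 4.48 CPM. None of these 9 genes, which were listed because they were called, overlapped between the groups. Soat1 was at 70.9 and 157 CPM in XY WT and 555 and 384 CPM in XY +KTS KO (2.04 ± 0.41, edgeR adjusted p = 0.0102), and this call held in all 4 leave-one-out fits. Srebf2 was at 12.1 and 16.1 CPM and at 23.8 and 27.6 CPM (0.86 ± 0.19, edgeR adjusted p = 0.0129). Nsdhl, the lower member, was at 44.2 and 31.1 CPM in XY WT and at 13.6 and 14.1 CPM in XY +KTS KO (-1.44 ± 0.19, edgeR adjusted p = 0.00188). Leaving out XY WT replicate 1 left 4 calls. Scap, called here at an adjusted p of 0.0449 by edgeR, was called in none of the 10 alternative settings. Immediate early genes summed to 3182 CPM in the supporting cells of XY +KTS KO replicate 1 and 666 CPM in those of replicate 2, and 11 members were called without replicate 1.

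The same members were read in the somatic cells outside the supporting clusters of the 8 libraries, a set added after the data were seen. This set kept 3 unnamed clusters whose best marker score was for a supporting type, among them cluster 14 with Sox9 among its leading genes. They made up 14.7% and 36.0% of the cells so taken in XY WT, 9.16% and 9.33% in XX WT, and among +KTS KO libraries 3.39% and 6.59% for XX with 0.848% and 3.84% for XY, so cells like supporting cells remained in it, most of all in XY WT. None of the 31 members was called there by edgeR in XX +KTS KO (0.491% of all genes were, 0.330% higher and 0.162% lower). Nor was any called in XY +KTS KO (3.22%, with 1.47% higher and 1.75% lower). Between the WT sexes none was called either (1.84%, with 0.672% higher and 1.17% lower in XX). In turn, 4, 8 and 5 members had an unadjusted edgeR p under 0.05, counts not set here against those of all genes. Mvd was at 19.6 and 16.5 CPM in XX WT and 21.2 and 19.1 CPM in XX +KTS KO outside the supporting clusters. Mvk was at 37.4 and 34.3 CPM and at 42.1 and 40.1 CPM in turn. Msmo1 was at 45.8 and 36.4 CPM and at 58.1 and 45.9 CPM. Scarb1 was at 12.7 and 12.8 CPM and at 15.5 and 15.7 CPM. Mvd overlapped between these groups, whereas Mvk, Msmo1 and Scarb1 were higher in XX +KTS KO without overlap. Other members differed more there without a call. Scap was at 9.81 and 8.91 CPM in XX WT and 14.8 and 14.8 CPM in XX +KTS KO (0.66 ± 0.18, edgeR adjusted p = 0.184, the lowest of the members). Abcg1 was at 0.592 and 0.689 CPM and at 1.23 and 1.53 CPM (1.104 ± 0.33, edgeR adjusted p = 0.229). Acat3 was at 4.05 and 2.78 CPM and at 0.575 and 1.19 CPM (-1.94 ± 0.83, edgeR adjusted p = 0.459). In these 3 genes too the groups did not overlap. Abcg1 lay the other way in XY, at 1.53 and 1.70 CPM in WT and 0.770 and 1.09 CPM in +KTS KO (-0.79 ± 0.32, edgeR adjusted p = 0.217), whereas it was called higher in the supporting cells of XY +KTS KO. Soat1 was at 108 and 151 CPM in XX WT against 257 and 205 CPM in XX +KTS KO (0.83 ± 0.36, edgeR adjusted p = 0.456), and at 73.2 and 151 CPM in XY WT against 323 and 217 CPM in XY +KTS KO (1.27 ± 0.36, edgeR adjusted p = 0.106). Whether a fold differed between supporting and other somatic cells was not tested.

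**Figure D3:**
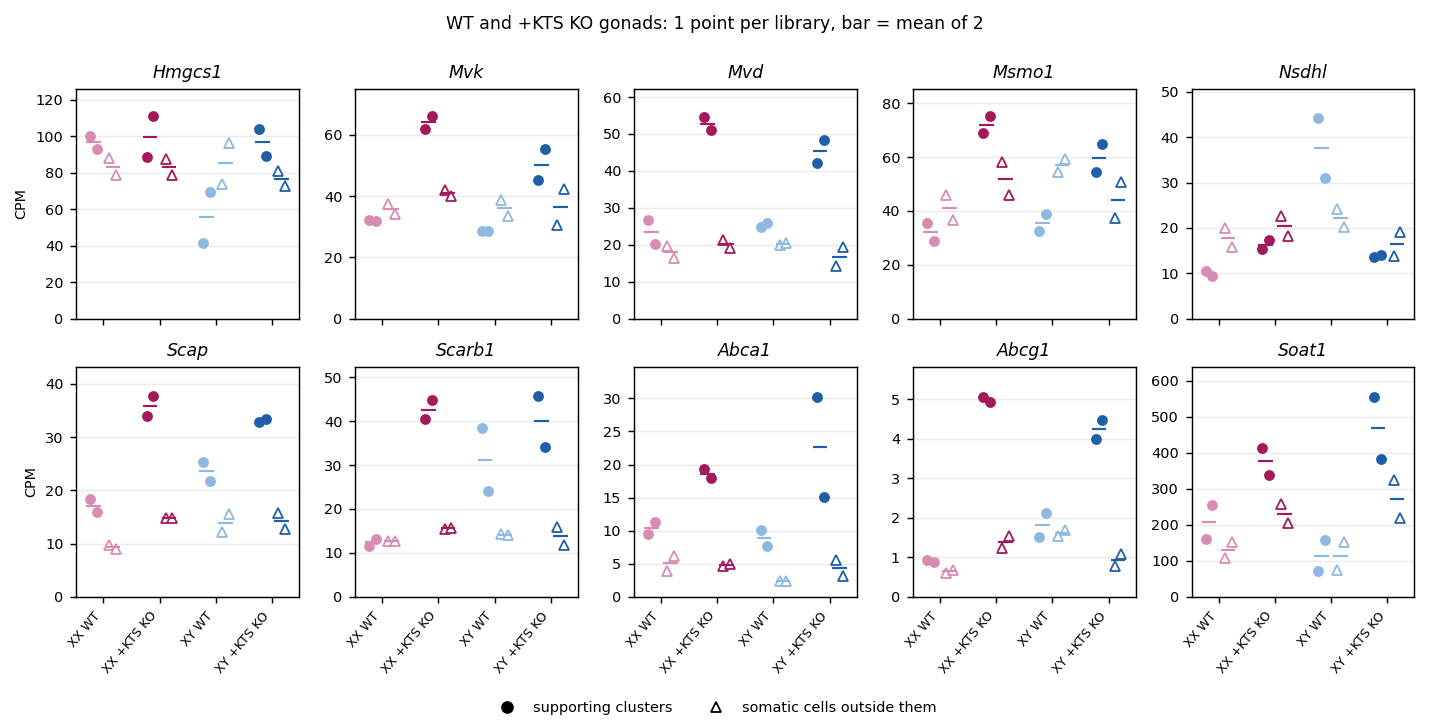
CPM (y axes from 0) of 10 members in supporting clusters (filled circles) and in the somatic cells outside them (open triangles), in 4 groups (x axis) of 2 libraries each, with bars for the means. Mvk, Mvd, Msmo1, Scap, Scarb1 and Abcg1 were higher in XX +KTS KO supporting cells than in those of XX WT, and the triangles of the 2 groups lay closer together.

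For the -KTS KO libraries the clusters named as supporting were nearly empty, so supporting cells were taken cell by cell. Somatic cells with at least 5000 UMIs were thinned at random to 5000, and those with at least 3 supporting markers were kept. This gave 1278 to 1837 cells per -KTS KO library, over 12 libraries and 16625 genes. The limit on UMIs left out 171 and 903 somatic cells in XX -KTS KO replicates 1 and 2, and 209 and 234 in those of XY -KTS KO. It left out 211 to 285 per WT library. Of the 33015 cells so taken, 5900 sat at exactly 3 markers, which was 35.2% to 40.9% of the cells per -KTS KO library, 10.3% to 12.6% per WT library and 13.5% to 17.6% per +KTS KO library. Nearly all such cells of -KTS KO lay in clusters with other names or none. In XX -KTS KO, 3 members were called (9.68%, against 16.3% of all genes, with 7.41% higher and 8.90% lower): Idi1 higher, and Acat3 and Soat1 lower. Acat3 was at 25.5 and 13.8 CPM in XX WT and 0.243 and 0.360 CPM in XX -KTS KO (-6.04 ± 0.85, edgeR adjusted p = 0.00181). Soat1 was at 154 and 240 CPM and at 70.2 and 76.1 CPM (-1.43 ± 0.40, edgeR adjusted p = 0.0381). Both genes were thus low in the marker-positive cells too, without overlap. Idi1, an isomerase of the mevalonate pathway, was at 35.9 and 29.0 CPM and at 87.6 and 48.7 CPM (1.07 ± 0.27, edgeR adjusted p = 0.0239). The count was 1 without XX -KTS KO replicate 1, 2 without replicate 2 and 1 without either XX WT replicate. In these cells pre-granulosa markers summed to 1632 to 1684 CPM in XX WT and 651 to 817 CPM in XX -KTS KO, pre-supporting markers to 2276 to 2550 CPM and 1107 to 1473 CPM, interstitial progenitor markers to 150 to 159 CPM and 405 to 456 CPM, and coelomic epithelial markers to 75.2 to 76.3 CPM and 227 to 245 CPM. Their part in the 3 calls, and that of marker lists not printed here, was not tested.

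In XY -KTS KO, 9 members were called in the marker-positive cells (29.0%, against 27.9% of all genes, with 12.8% higher and 15.2% lower), Npc1 higher and Nsdhl, Ebp, Dhcr7, Scap, Acat3, Abcg1, Soat1 and Scarb1 lower. In XY WT and XY -KTS KO in turn, Npc1 was at 12.6 and 10.3 CPM and at 15.6 and 17.5 CPM, Nsdhl at 35.8 and 23.8 CPM and at 15.2 and 15.8 CPM, and Ebp, an isomerase of the ring, at 52.4 and 37.8 CPM and at 29.9 and 24.3 CPM. Dhcr7 was at 15.3 and 16.1 CPM and at 7.88 and 12.1 CPM, Acat3 at 1.29 and 7.96 CPM and at 0.392 and 0.259 CPM, and Soat1 at 89.7 and 184 CPM and at 37.7 and 73.6 CPM. No overlap between the groups was seen in these 6 genes, which were listed because they were called. Scarb1 was at 35.1 and 22.6 CPM in XY WT and 6.49 and 9.49 CPM in XY -KTS KO (-1.85 ± 0.25, edgeR adjusted p = 0.000424). Scap was at 24.2 and 22.3 CPM and at 13.6 and 14.7 CPM (-0.71 ± 0.15, edgeR adjusted p = 0.00518), and Abcg1 at 1.89 and 2.48 CPM and at 0.464 and 0.551 CPM (-2.10 ± 0.33, edgeR adjusted p = 0.00106). Each of these 3 genes stayed called in all 4 leave-one-out fits, whereas Nsdhl and Acat3 did in 3, Npc1 and Soat1 in 2 and Ebp and Dhcr7 in 1. In these cells Sertoli markers summed to 2298 to 3885 CPM in XY WT and 77.8 to 82.1 CPM in XY -KTS KO, proliferation markers to 597 to 665 CPM and 275 to 308 CPM, and interstitial progenitor markers to 144 to 185 CPM and 391 to 410 CPM. Their part in the 9 calls was not tested. Scap and Scarb1 were not called in these cells of XX -KTS KO.

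Between WT supporting cells of the sexes, 5 members were called (16.1%, against 25.6% of all genes, with 12.4% higher and 13.2% lower in XX). Hmgcs1 and Acat3 were higher in XX, by 0.80 ± 0.25 (edgeR adjusted p = 0.049) and 3.42 ± 0.78 (edgeR adjusted p = 0.0196) on the log2 scale. Nsdhl, Abcg1 and Scarb1 were lower in XX, with log2 differences of -1.92 ± 0.19 (edgeR adjusted p = 0.000611), -0.999 ± 0.27 (edgeR adjusted p = 0.0312) and -1.33 ± 0.25 (edgeR adjusted p = 0.0068). Nsdhl was at 10.5 and 9.45 CPM in XX and 44.2 and 31.1 CPM in XY supporting cells, and its call held in all 4 leave-one-out fits. The count of calls was 1 and 2 without XX WT replicates 1 and 2, and 6 without either XY WT replicate. Sertoli markers summed to 85.9 to 96.6 CPM in XX WT and 3847 to 5479 CPM in XY WT supporting cells, pre-granulosa markers to 1895 to 1971 CPM and 306 to 453 CPM, proliferation markers to 191 to 212 CPM and 527 to 624 CPM, and immediate early genes to 424 to 459 CPM and 735 to 894 CPM. Their part in the 5 calls was not tested.

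Across cell classes of the WT libraries, members of 1 pathway did not share 1 pattern. Means are over WT libraries with at least 50 cells of the class, 2 for Sertoli, 3 for pre-granulosa and 4 for the other classes, and they are descriptions, as each class was defined by clustering these cells. Fdps, the farnesyl diphosphate synthase, was at 362 CPM in germ cells, 225 CPM in endothelial cells and 87.4 to 145 CPM in the named somatic classes. Fdft1, squalene synthase, was at 96.0 CPM in germ cells and at 29.6 to 56.2 CPM in the named somatic and endothelial classes. Nsdhl was at 37.1 CPM in Sertoli and at 10.5 CPM in both pre-granulosa and germ cells. Acat3 was at 17.8 CPM in pre-granulosa and 17.5 CPM in pre-supporting cells and at 1.48 CPM or less in the other named classes.

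Among the transport genes, Abcg1 was at 25.5 CPM in germ and 23.0 CPM in endothelial cells and at 0.463 to 2.89 CPM in the named somatic classes. Stard4 was at 52.1 CPM and Abca1 at 28.6 CPM in endothelial cells. Soat1 was at 228 CPM in pre-granulosa, 212 CPM in pre-supporting and 98.5 CPM in Sertoli cells, and at 14.6 CPM in germ cells. Soat1 in interstitial progenitors was at 110 to 152 CPM in XX WT, where cluster 4 held the largest share, and at 31.8 to 40.4 CPM in XX -KTS KO, where cluster 1 held 69.9%. In coelomic epithelial cells it was at 97.0 to 146 CPM in XX WT (cluster 16) and 49.0 to 58.0 CPM in XX -KTS KO (cluster 7). Soat1 was lower in XX -KTS KO in both of these classes, but the cells compared lay in different clusters. A change within a class cannot be told apart from a change in the cells that make it up.

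**Figure D4:**
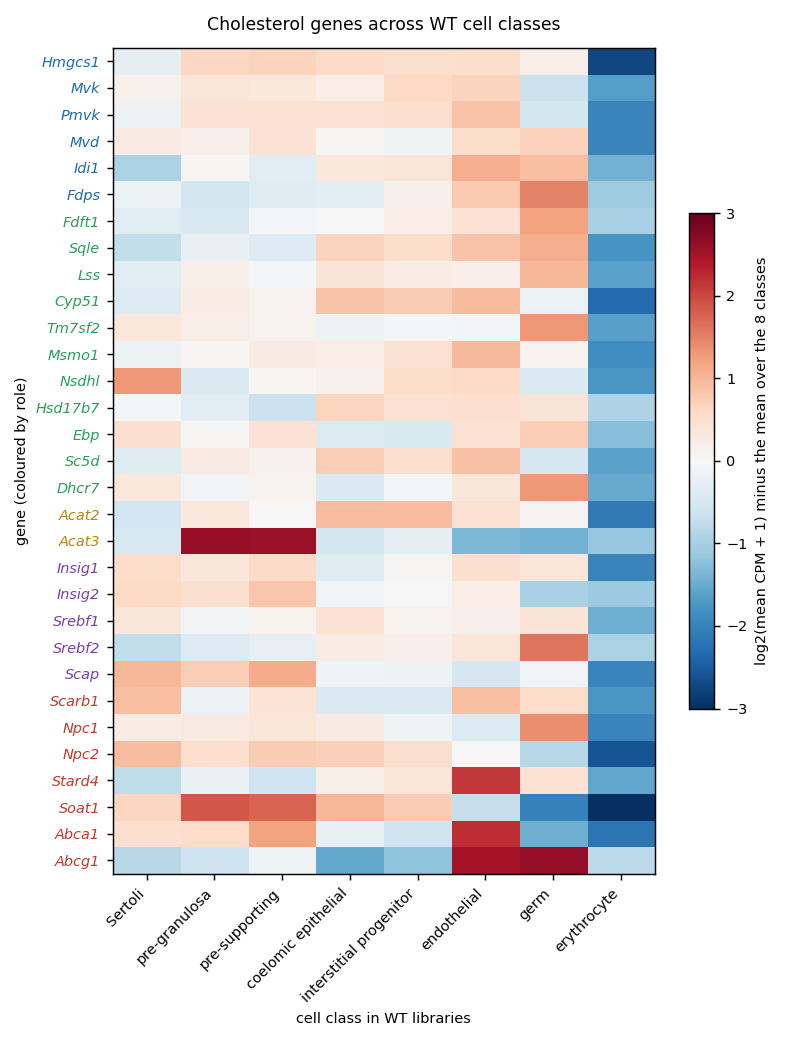
Mean level of each of the 31 members (y axis) in 8 cell classes of the WT libraries (x axis), as log2(CPM + 1) minus the member's mean over the 8 classes (colour). Acat3 stands out in pre-granulosa and pre-supporting cells, Abcg1 in germ and endothelial cells, Stard4 and Abca1 in endothelial cells and Nsdhl in Sertoli cells.

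Other genes of the pathway were counted from lists in somatic sums. Of 38 further genes of sterol handling that were tested, 0 were called in XX +KTS KO, 2 in XY +KTS KO, 2 in XX -KTS KO and, of XY gonads, 5 in -KTS KO. These were 0%, 5.26%, 5.26% and 13.2% of that list, against 5.06%, 12.4%, 16.2% and 23.6% of all genes. The median log2 fold of that list in XX +KTS KO was -0.05, against 0.28 for the 31 members. In XY -KTS KO, Vldlr, a lipoprotein receptor, was higher (1.76 ± 0.49, edgeR adjusted p = 0.0257) and Gramd1b, which carries cholesterol from the plasma membrane, was lower (-1.31 ± 0.29, edgeR adjusted p = 0.00897). Of 15 fatty acid synthesis genes, 1, 2, 1 and 3 were called in the same order of comparisons, and each of them was lower in the mutant. These were 6.67%, 13.3%, 6.67% and 20% of the list, to be read against the same shares of all genes. Of 9 genes that turn cholesterol into steroids or govern that step, 3 were called in XX +KTS KO, all higher, with 2 in the XY counterpart, all higher, and 4 in each -KTS KO, 1 higher and 3 lower, which made 33.3%, 22.2%, 44.4% and 44.4% of the list.

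Cyp11a1, which cleaves the side chain of cholesterol in the first step to steroids, was at 24.5 and 19.9 CPM in XX WT, 152 and 163 CPM in XX +KTS KO and 1.31 and 0.532 CPM in XX -KTS KO. In XY it was at 13.4 and 26.6 CPM in WT, 58.1 and 136 CPM in +KTS KO and 0.868 and 1.57 CPM in -KTS KO. All 4 differences from WT were called, with log2 folds of 2.83 ± 0.51 and 2.27 ± 0.50 in XX and XY +KTS KO, and -4.54 ± 0.58 and -4.02 ± 0.56 in XX and XY -KTS KO. Within each sex Cyp11a1 did not overlap between genotypes, with +KTS KO highest and -KTS KO lowest. Nr5a1, a transcription factor of steroid-making cells, was at 35.4 and 34.1 CPM in WT, 65.1 and 70.0 CPM in +KTS KO and 15.5 and 21.7 CPM in -KTS KO of XX gonads. Star, which carries cholesterol into mitochondria, went the other way in XX -KTS KO, from 12.1 and 7.81 CPM to 34.5 and 45.2 CPM (2.00 ± 0.32, edgeR adjusted p = 0.00281). In the supporting clusters Nr5a1 was at 42.2 and 41.1 CPM in XX WT and 85.0 and 104 CPM in XX +KTS KO. There it overlapped between the XY groups, at 93.8 and 110 CPM in XY WT and 105 and 89.7 CPM in XY +KTS KO.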

How the data were processed

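The authors deposited filtered gene-by-barcode UMI counts for each of the 12 libraries, from 10x Genomics 3' libraries aligned with Cell Ranger 6.0 to mm10, per the labels and the processing notes. Libraries held 108111924 to 147968666 UMIs. The members and the other lists were chosen with earlier results of these data known. Of 103730 barcodes, 83513 passed quality filters and 76976 were kept after doublets were removed with Scrublet (scanpy 1.11.5). Barcodes needed 1000 genes and at most 10% mitochondrial UMIs. Because the threshold of Scrublet called 3 or fewer cells in 9 libraries, the highest scores were removed in every library at a rate of 0.8% per 1000 barcodes. In all, 1329 of 102389 distinct barcode sequences occurred in more than 1 library. Cells were clustered with Seurat 5.3.0 and sctransform 0.4.2 into 33 clusters, which were named from fixed marker lists, and 66213 cells were taken as gonadal somatic and 20864 as supporting. Counts were summed per library and tested with edgeR 4.0.16 (quasi-likelihood, TMM, Benjamini-Hochberg over all genes tested), and with DESeq2 1.42.0 as an alternative. The tests were also tried on counts simulated from these sums, with outcomes not given here. Clusters named as supporting were nearly empty in the -KTS KO libraries, so the cluster fit used 8 libraries. For -KTS KO, against the plan, cells with at least 3 supporting markers were used. The text names every member called in a comparison. For those called in a mutant it gives each library of both groups compared, and not always those of the other groups. Of the other lists it names only genes called in a mutant comparison, at most 3 per comparison and direction. Counting error only is covered by UMI counts. Leave-one-out, normalisation, filter, doublet and cell choice alternatives were run.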

Additional observations from a re-analysis of the deposited data

Results flagged for a closer look

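Nsdhl, the X-linked sterol dehydrogenase, differed between XX and XY in its response to +KTS KO in gonadal somatic sums. The effect in XX minus that in XY was 1.21 on the log2 scale (SE 0.25, edgeR adjusted p = 0.0282). Its XX libraries were at 14.9 and 12.5 CPM in WT and at 19.0 and 17.7 CPM in +KTS KO. Its XY libraries were at 29.6 and 23.3 CPM in WT and at 13.9 and 16.8 CPM in +KTS KO. The call was kept in 2 of 8 leave-one-out fits and in 7 of 14 alternatives in all. Sertoli markers summed to 1403 to 1615 CPM in XY WT, 82.8 to 246 CPM in XY +KTS KO, 55.5 to 61.1 CPM in XX WT and 61.6 to 114 CPM in XX +KTS KO, and their part in the difference was not tested.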

How the results depend on the processing

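With 2 libraries per group, counts of members called moved with single libraries, as did those of all genes. Leaving out 1 library gave, in somatic sums, 1 to 2 members for XX -KTS KO, 5 to 9 for XY -KTS KO, 0 to 1 for XX +KTS KO, 1 to 7 for XY +KTS KO, 0 to 2 between the WT sexes, 0 to 1 for the difference between the sexes in -KTS KO effect and 0 to 4 for that in +KTS KO effect. In supporting cells it gave 1 to 2 for XX +KTS KO, 4 to 11 for XY +KTS KO, 1 to 6 between the WT sexes, 1 to 2 for XX -KTS KO and 6 to 7 for XY -KTS KO. A lone library is assumed there to vary like the other groups. For the somatic sums, every barcode that passed the gene and mitochondrial filters was also taken. All cell types and doublets were kept, so both choices changed together. This gave 2 for XX -KTS KO, 5 for XY -KTS KO, 2 for XX +KTS KO and 3 for XY +KTS KO. It gave 1 between the WT sexes and 0 for the +KTS KO difference. The shares of all genes called were 7.93%, 12.9%, 2.45%, 9.72%, 6.81% and 1.49% in turn. Without a filter on low counts the counts were 2 for XX -KTS KO, 2 for XY +KTS KO and 1 for the -KTS KO difference. In supporting cells the count was 3 between the WT sexes. All genes were called at 10.7%, 8.24%, 2.62% and 16.8% in turn. DESeq2 gave 8 for XY +KTS KO, 7 between the WT sexes, 2 for the -KTS KO difference and 3 for the +KTS KO difference. Of all genes it called 18%, 17.1%, 7.46% and 8.53% in turn. For XY +KTS KO, size factors by RLE gave 3, somatic cells taken per cell 3 and supporting cells taken per cell 7. All genes were called at 12.6%, 12.3% and 14.8% in these. Outside the supporting clusters, an alternative chosen after seeing the data, the counts were 0 for XX +KTS KO, 0 for XY +KTS KO and 0 between the WT sexes. For single called members, 415 alternative values kept direction and call, 208 kept direction and lost the call, and 0 reversed.

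Deviations of same-numbered libraries from their group means correlated at 0.32 in XY WT and XY -KTS KO, 0.04 in XX WT and XX +KTS KO, -0.15 in XY WT and XY +KTS KO and -0.20 in XX WT and XX -KTS KO, and from -0.31 to 0.32 over all pairs of groups. Some pairs thus deviated together and others did not, and without a label that ties the numbers to a shared batch they were not taken to pair the libraries. With the replicate block, 4 members were called for XX -KTS KO and 10 for XY -KTS KO in somatic sums. The count was 5 for XX +KTS KO and 4 for XY +KTS KO. The shares of all genes were 15.4%, 22.3%, 4.66% and 11% in turn.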
